A study of Mus musculus with 7 samples.

Results

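The cells described here were CD4+ T cells of the small intestinal epithelium that carried transcripts of Cd8a but none of Cd8b1, the pattern of CD4+CD8αα+ intraepithelial lymphocytes (IEL). They were chosen by measured values. A member had a productive TRB contig, at least 1 unique molecular identifier (UMI, 1 captured transcript) each of Cd4 and Cd8a, and 0 UMIs of Cd8b1, Trdc and Fcer1g. This rule took 1010 of the 10159 IEL and of the 21365 cells in the series, 256 in young and 754 in old IEL. Cd4 (ENSMUSG00000023274) lies on chromosome 6 from 124864692 to 124888221 in GRCm38, and Cd8a (ENSMUSG00000053977) lies on the same chromosome from 71373427 to 71379173. The rule fixed the levels of these 5 genes, so their values below are a description.

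Most peripheral T cells with an αβ T cell receptor (TCR) keep either CD4 or the CD8αβ heterodimer. In the intestinal epithelium, conventional CD4+ T cells can gain the CD8αα homodimer, a ligand of the thymus leukemia antigen on epithelial cells, together with granzymes and receptors shared with cytotoxic cells. The change is known to go with low ThPOK (Zbtb7b), the factor that holds the CD4 lineage, and with Runx3. Fcer1g encodes an adaptor of natural IEL, so its absence set the cells apart from CD4 cells that carry that adaptor.

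The mice were male C57BL/6, 6 weeks old (young) or 80 weeks old (old), and the labels name no treatment or transgene. Per the labels, cells of 3 mice per age were pooled, whereas a legend of the study counts more young mice, and the mouse of origin of a cell was not used here. CD45+ cells of IEL and spleen (SP) were marked with 1 hashtag antibody per pool, sorted as CD3+ and CD3+CD4+ cells, and, for IEL, mixed 1:1 to enrich CD4+ cells, so the share of CD4+ cells among IEL was set in part by the sort. Gene expression and TCR libraries were made in 1 set from all 4 pools. With 1 pool per age no test between ages was possible, and cells of 1 pool are not replicates. Every interval given is an exact 95% interval (Poisson for levels, Clopper-Pearson for shares) and covers counting error only. Levels are summed UMIs of a gene per 10000 UMIs of the cells.

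The young IEL library held 4348 cells with 32248487 UMIs (median 6531 per cell) and the old one 5811 cells with 33314700 UMIs (median 5324). Of the young IEL, 2760 had a productive TRB contig, 1291 of these had Cd4, and 929 of those lacked Cd8b1, Trdc and Fcer1g. In old IEL these steps left 3586, 1889 and 1179 cells. Cells of this gate without a Cd8a UMI, 673 young and 425 old, are called Cd8a-negative CD4 IEL and were the main comparison. A further 194 young and 585 old cells had Cd8a and Fcer1g. The members had a median of 6987 UMIs in young and 4944.5 in old IEL, and the Cd8a-negative cells 6022 and 4900.

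The TCR was read in the same cells, and the sequences of the junction (CDR3) of the most frequent TCRs are printed because the old members were dominated by 1 of them. A clonotype is the clonotype identifier of the deposited TCR tables. The largest among old members held 409 cells with TRBV2, which lies on chromosome 6 from 41047340 to 41047995, joined to TRBJ1-6, and with TRAV13D-2 joined to TRAJ58. The next 2 held 35 members each, with TRBV13-1 and TRBJ1-6 and with TRBV26 and TRBJ2-1, and were followed by 2 of 23 members, both with TRBV5. In young IEL the largest held 12 members with TRBV20 and TRBJ2-7, and the next 3 held 9 each, of which the printed one had TRBV12-2 and TRBJ1-4. Capitals mark bases found in neither the germline V nor the germline J segment of GRCm38 (annotation GENCODE M21), and lower case bases match one of these.
old largest TRB: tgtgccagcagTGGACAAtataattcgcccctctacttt
old largest TRA: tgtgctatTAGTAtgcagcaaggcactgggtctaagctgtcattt
old rank 2 TRB: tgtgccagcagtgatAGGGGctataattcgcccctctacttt
old rank 3 TRB: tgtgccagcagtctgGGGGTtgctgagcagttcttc
old rank 4 TRB: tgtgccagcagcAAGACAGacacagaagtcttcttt
old rank 5 TRB: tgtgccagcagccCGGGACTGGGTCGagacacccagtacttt
young largest TRB: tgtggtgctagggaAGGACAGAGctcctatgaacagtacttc
young rank 2 TRB: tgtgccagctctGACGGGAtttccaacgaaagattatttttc
The 5 old TRB junctions differed in V segment or J segment, and each held between 5 and 13 bases of neither segment.

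The part of CD4 IEL with Cd8a was larger in the old pool. In young IEL 256 of 929 gated cells had a Cd8a UMI, or 27.6% (24.7 to 30.6), and in old IEL 754 of 1179, or 64.0% (61.1 to 66.7). In SP, where CD4+ T cells should lack Cd8a, the same gate gave 1.40% of 1713 young and 2.54% of 1104 old cells at median depths of 5417 and 4675 UMIs. Only 1 SP cell, an old one, carried more than 1 Cd8a UMI. After each cell was thinned to 2000 UMIs, the share was 22.1% in young and 55.9% in old IEL, against 0.825% and 1.56% in SP. Thinning left out 0 young and 130 old cells of the IEL libraries, and 29 young and 37 old cells of SP, as too shallow. Without the largest clonotype of old members it was 59.1% (55.0 to 63.1), so the order of the ages was the same in the remaining 584 old cells. Cells with both Ccr7 and Lef1, genes of naive T cells, were in the same gate in young IEL, and 3 of these 130 cells had Cd8a. In old IEL there were 11 such cells and 0 had Cd8a (interval 0 to 28.5%), so for the old library this background is hardly limited.

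**Figure D1:**
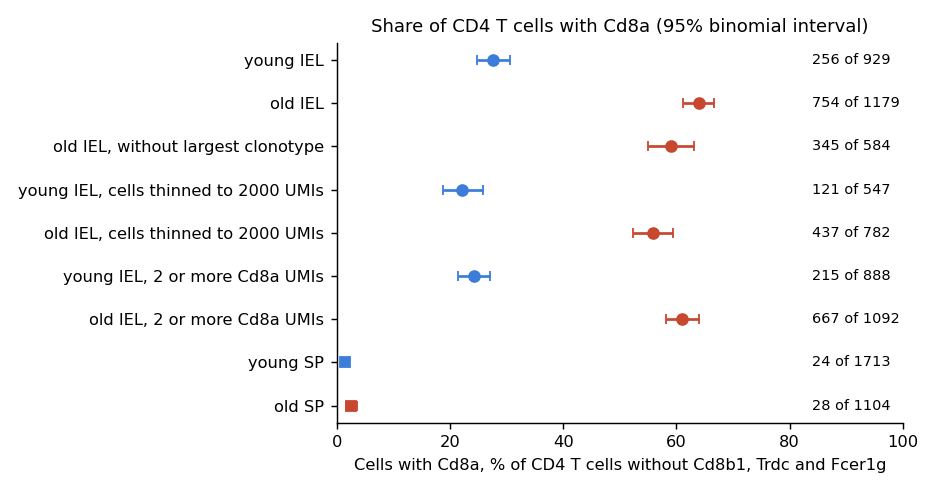
Share of gated CD4 cells with a Cd8a UMI (percent, x axis) by pool, as deposited, without the largest old clonotype, after thinning to 2000 UMIs and with at least 2 Cd8a UMIs, with exact 95% binomial intervals as bars. Old IEL lie near 64.0% and young IEL near 27.6% as deposited, and both SP pools lie under 3%.

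Members carried a median of 5 Cd8a UMIs at either age, with 40 the highest in a young and 36 in an old cell. Just inside the threshold, 41 young members (16.0%) and 87 old members (11.5%) had exactly 1. The level of Gzma, which encodes granzyme A, was 59.4 in young cells with 0 Cd8a UMIs, 147 with 1, 229 with 2 to 5 and 273 with 6 or more. In old cells it was 112, 168, 173 and 245. The young cells at 1 UMI thus lay between the cells on either side. Il17a, the gene of the cytokine interleukin 17A, stood at 10.7 in young cells with 0 Cd8a UMIs and at 9.64 with 1, but at 0.17 with 2 to 5 and 0.02 with 6 or more. In old cells it was 10.7 with 0, 0.14 with 1, 0.27 with 2 to 5 and 0.01 with 6 or more. Of the 4 old members with an Il17a UMI, 3 had at least 2 Cd8a UMIs. Of the 11 young members with an Il17a UMI, 7 were among the 41 cells with 1 Cd8a UMI and 4 among the other 215. The level of Il17a in young members therefore rested mainly on cells at the threshold.

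The markers named for these cells were found. Cd5, a receptor that dampens TCR signals and is scarce in natural IEL, stood at 5.40 (5.10 to 5.72) in young and 8.02 (7.75 to 8.30) in old members. It was at 4.59 and 7.07 in Cd8a-negative cells, but at 0.450 and 0.439 in the cells with Fcer1g. Cd40lg, which encodes the ligand by which CD4+ T cells help B and dendritic cells, was at 1.05 in young and 3.11 in old members, and at 0.162 and 0.192 in the cells with Fcer1g. In the Cd8a-negative cells Cd40lg was higher than in the members, at 2.19 and 3.997. The level of Cd8a itself was 8.21 in young and 12.6 in old members. For Cd5 and Cd40lg, which the rule did not use, the members lay nearer in fold to the Cd8a-negative CD4 cells than to the cells with Fcer1g.

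Some markers of other cell types were found in the members, chiefly Cd160 of the natural IEL list, and the γδ list was above its sum in the Cd8a-negative cells. The γδ T cell list of 5 genes summed to 3.86 in young and 6.05 in old members, led by Tcrg-C2, with Trdc at 0 by the rule. In the Cd8a-negative cells this list summed to 1.32 and 3.97. The 6 markers of natural IEL summed to 6.24 and 9.06, of which Cd160 gave 5.40 and 6.72, while Fcer1g and Klra5 were at 0. In the Cd8a-negative cells they summed to 6.58 and 7.34, led by Xcl1 in young and Cd160 in old. In the cells with Fcer1g the same list summed to 51.3 and 49.4, of which Fcer1g, a gene of the rule, gave 25.7 and 32.7. Regulatory T cell markers summed to 1.18 and 0.798 in members and 1.72 and 1.62 in Cd8a-negative cells. Naive T cell markers summed to 0.406 and 0.0955 in members and to 4.83 and 1.06 in Cd8a-negative cells, so naive markers moved with the comparison of the 2 kinds of cells described below. In the members, B cell markers summed to 0.447 and 0.737, epithelial markers to 0.0948 and 0.140, and myeloid markers to 1.54 and 1.42. The same sums in the Cd8a-negative cells were 1.23 and 0.912, 0.162 and 0.126, and 1.22 and 1.38. Cst3 was the most abundant gene of the myeloid list. Foxp3, the factor that defines regulatory T cells, was at 0.0181 in young and 0.00734 in old members. The part of these cells in the results below was not tested. At least 2 productive TRB contigs, a sign of doublets, were found in 8.59% of young and 3.05% of old members.

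The TCRs of old members were far less diverse than those of young ones. The 256 young members fell into 116 clonotypes, of which 69 held 1 member. The largest held 12 members, or 4.69% (2.45 to 8.04), and the 5 largest together 18.4%. The 754 old members fell into 103 clonotypes, of which 73 held 1 member, and the largest held 54.2% (50.6 to 57.8). The 5 largest held 69.6%. Drawn down to 190 cells, the expected number of clonotypes was 97.0 in young and 41.2 in old members. Without the largest clonotype, the 345 old members left 102 clonotypes and an expected 67.4 in 190 cells, and the next largest held 10.1% of them. The Cd8a-negative cells were more diverse at either age, with 168.3 expected clonotypes in young and 65.8 in old. Cells without a TRA contig form clonotypes of their own, so the members were also grouped by their TRB alone. This gave 105 groups in young, of which 56 held 1 member, and 72 in old, of which 38 held 1 member. The largest group held 54.8% of the old members. Clonotypes of one pool can come from different mice, and how much of the dominance lay in 1 mouse was not tested.

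**Figure D2:**
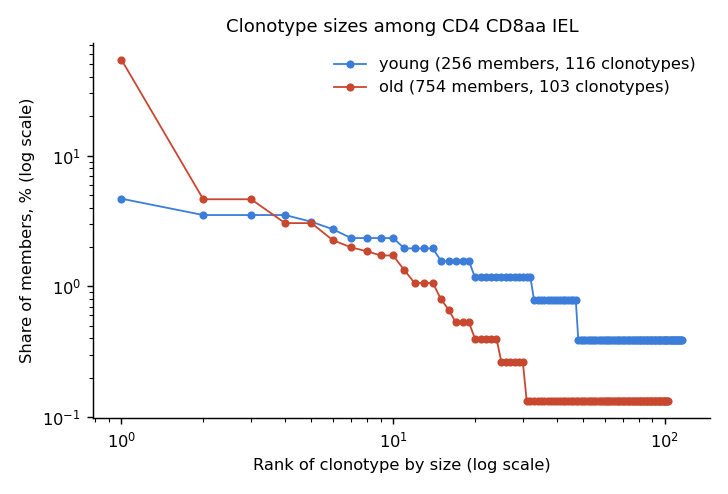
Clonotypes ranked by size (x axis, log scale) against the percent of members they hold (y axis, log scale), for the 256 young and 754 old members. The largest clonotype of old members stands at 54.2%, and the largest of young members at 4.69%.

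Cells with and without Cd8a often shared a clonotype. Of the clonotypes with a member, 51 of 116 in young and 22 of 103 in old also held a Cd8a-negative CD4 cell. These held 57.8% of the young and 78.8% of the old members. The largest clonotype gave 409 of the 594 old members counted here, so the order of the ages is not read from these shares. Among the 9 young clonotypes with at least 10 gated cells, the share of members ran from 20% to 81.8% with a median of 60%. Among the 12 such old clonotypes it ran from 14.3% to 100% with a median of 72.1%. The largest old clonotype had 409 members in 595 gated cells, or 68.7% (64.8 to 72.4). In 3 old clonotypes all 14, 13 and 13 gated cells were members. At the other end, the lowest of the 12 old clonotypes, picked for its value, had 4 members in 28 cells (14.3%, 4.03 to 32.7). Its interval did not overlap that of the largest, but covers counting error only and makes no allowance for the pick. Clonotypes that also held a cell with Fcer1g and Cd8a were fewer, 6 in young and 9 in old.

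The largest old clonotype held 1047 cells in the whole library, of which 799 had a productive TRB contig. Of all 1047, 79.5% had Cd4, 68.7% had Cd8a, 1.72% had Cd8b1, 2.20% had Trdc and 4.87% had Fcer1g. Its members carried Cd8a at 10.8, against 14.9 in the old members outside it. Gzma stood at 198 and Ccl5, a chemokine gene of effector T cells, at 300 in its members, and the old members outside it had 226 and 304. The largest clonotype thus lay below the other old members for Cd8a and Gzma and close to them for Ccl5.

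The members were compared with the Cd8a-negative CD4 IEL of the same pool over 3274 genes with a mean level of at least 0.5. That mean covered both kinds of cells at both ages. A gene low in members could thus be tested because it was high in Cd8a-negative cells, and the reverse. Ratios are log2 values after adding 0.1 to each level, which understates them for low genes. In young IEL 22 genes were at least 2-fold higher in the members, which is 0.672% of the genes tested, and 51 were at least 2-fold lower, which is 1.56%. In old IEL 3 were higher (0.0916%) and 34 lower (1.04%). Without the largest clonotype on both sides, old IEL had 29 higher (0.886%) and 58 lower (1.77%). The young and old pools share no cells, and all 73 genes past 2-fold in young had the same sign in old. Without the largest clonotype 71 did, and Xcl1 and Bcl2 had the opposite sign. Past 2-fold at both ages were 2 higher and 26 lower genes, and without the largest clonotype 16 and 37. The gene lists below were chosen with earlier results of these data known, so their counts are a description.

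Some cytotoxic granule genes stood well above the Cd8a-negative cells, past 2-fold in 4 of the 11 tested in young and in 0 in old IEL. Over all genes tested the shares past 2-fold higher were 0.672% in young and 0.0916% in old. Without the largest clonotype the share in old was 0.886%. Gzma was at 242 (240 to 244) in young members and 59.4 (58.7 to 60.1) in young Cd8a-negative cells, a log2 ratio of 2.02. In old cells it was 211 (209 to 212) and 112 (111 to 113), a ratio of 0.91, and 226 and 67.3 without the largest clonotype, a ratio of 1.75. Gzmb, which encodes granzyme B, was at 78.0 and 28.4 in young and at 69.8 and 41.3 in old cells. Nkg7, a protein of cytotoxic granules, was at 20.4 and 10.0 in young and 23.3 and 14.9 in old cells. The 4 genes in young were Gzma, Gzmb, Nkg7 and Serpinb6b, and 3 of the 11 were past 2-fold in old without the largest clonotype. Nkg7 and Serpinb6b each lay within 2-fold in 1 of 5 alternatives. The median log2 ratio of this list was 0.77 in young and 0.35 in old, against 0.00 and -0.01 over all genes tested. The pore-forming protein gene Prf1 was low in all groups, at 0.366 in young and 0.754 in old members.

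Some genes of epithelial residence were higher in the members, while the list as a whole went both ways. Past 2-fold higher were 4 of the 17 tested in young, 1 in old and 5 in old without the largest clonotype. Over all genes tested the shares past 2-fold higher were 0.672%, 0.0916% and 0.886%. The median log2 ratio of the list was 0.12 in young (11 above 0) and 0.02 in old (9 above 0). It was -0.04 in old without the largest clonotype (8 above 0), against 0.00, -0.01 and -0.01 over all genes. Cd7, a surface protein abundant on IEL, was at 26.0 (25.3 to 26.7) in young members and 6.11 in young Cd8a-negative cells, and at 20.7 and 9.37 in old cells. Itgae encodes the integrin αE chain that binds epithelial E-cadherin. Its level was 7.38 and 2.77 in young and 9.27 and 5.81 in old cells. Itga1, the collagen-binding integrin α1 chain, was at 1.86 and 0.727 in young and 1.91 and 1.08 in old cells. Itgae, Itga1, Jaml and Cd7 were past 2-fold higher in young and Cd7 was in old. In young Itga1 lay within 2-fold in 2 and Jaml in 1 of 5 alternatives, and in old Cd7 in 1. Without the largest clonotype 5 were past 2-fold higher in old, and Itga4, the integrin α4 chain of gut homing, was past 2-fold lower, at 0.609 in members and 1.79 in Cd8a-negative cells. Ccr9, the receptor for homing to the small intestine, was at 2.06 and 3.15 in young and 2.55 and 2.72 in old cells. The chemokine gene Ccl5 was at 313 and 99.4 in young and 302 and 158 in old cells. Scin, which encodes an actin-severing protein, had the largest ratio among higher genes in young, with 1.56 against 0.226 (log2 ratio 2.35). Scin was at 2.21 and 1.12 in old cells. Cd244a, the SLAM family receptor 2B4, was at 1.20 and 0.232 in young and 1.62 and 0.825 in old cells.

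Costimulatory genes and genes of naive and recirculating T cells included several that were lower in the members. Cd28, the main costimulatory receptor of T cells, was at 0.709 (0.602 to 0.829) in young members and 2.54 (2.41 to 2.69) in young Cd8a-negative cells, and at 0.421 and 1.73 in old cells. Tnfrsf4, the gene of the costimulatory receptor OX40, was at 0.135 and 1.66 in young and 0.0367 and 1.29 in old cells. Icos was at 1.48 and 3.99 in young and 1.44 and 3.49 in old cells. With Tnfrsf18 these were 4 of the 8 costimulatory genes tested, all past 2-fold lower at both ages. None of the 8 was past 2-fold higher. Over all genes tested the shares past 2-fold lower were 1.56% in young and 1.04% in old IEL. Tnfrsf18 lay within 2-fold in 1 of 5 alternatives in young and 2 in old. Of the 10 naive and recirculation genes listed, 5 were tested. All 5 were past 2-fold lower in young, and Ccr7, Klf2, Tcf7 and Satb1 were in old. Ccr7 and Tnfrsf4 reached the mean level of 0.5 only through the Cd8a-negative cells. Their place among the lower genes was therefore set in part by the filter. In old IEL Ccr7 lay within 2-fold in 1, Klf2 in 2 and Satb1 in 3 of 5 alternatives, with Klf2 at -0.20 and Satb1 at -0.46 at the least. Tcf7, the gene of the factor TCF1, was at 0.569 and 3.11 in young and 0.374 and 1.44 in old cells. Ccr7, the receptor for entry into lymph nodes, was at 0.104 and 1.86 in young and 0.0171 and 0.391 in old cells.

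Lineage factors were less even. Of 21 tested, 4 were past 2-fold lower at both ages (Tcf7, Satb1, Bhlhe40 and Maf), and Zeb2 was past 2-fold higher in young. The shares lower over all genes tested were 1.56% in young and 1.04% in old, and the share higher in young was 0.672%. Maf lay within 2-fold in 2 and Bhlhe40 in 1 of 5 alternatives at each age, and Zeb2 in 2 in young. Zbtb7b was too low to be tested, with 0.0226 (0.00733 to 0.0527) in young members and 0.170 (0.136 to 0.211) in young Cd8a-negative cells. In old cells it was 0.0245 (0.0117 to 0.0450) and 0.117 (0.0773 to 0.171). Its intervals did not overlap at either age. Runx3 was at 1.85 and 1.70 in young and 2.35 and 2.29 in old cells, with intervals that overlapped. Cytokine genes of T helper 17 cells were among the lower genes. Il22 was at 0.154 and 3.28 in young and 0.237 and 2.23 in old cells. Il17a was at 1.48 and 10.7 in young and 0.120 and 10.7 in old cells, carried by 11 of 256 and 4 of 754 members, and by 66 of 673 and 32 of 425 Cd8a-negative cells. An Il17a UMI was also found in 2.58% of young and 0.342% of old cells with Fcer1g. With Maf, Il17a and Il22 were 3 of the 6 T helper 17 genes tested, out of 13 listed, all past 2-fold lower at both ages. Over all genes tested 1.56% in young and 1.04% in old IEL were past 2-fold lower. Il22 reached the mean level for testing only through the Cd8a-negative cells. The inhibitory receptor gene Ctla4 was at 5.77 and 9.47 in young and 6.22 and 9.77 in old cells, within 2-fold.

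**Figure D3:**
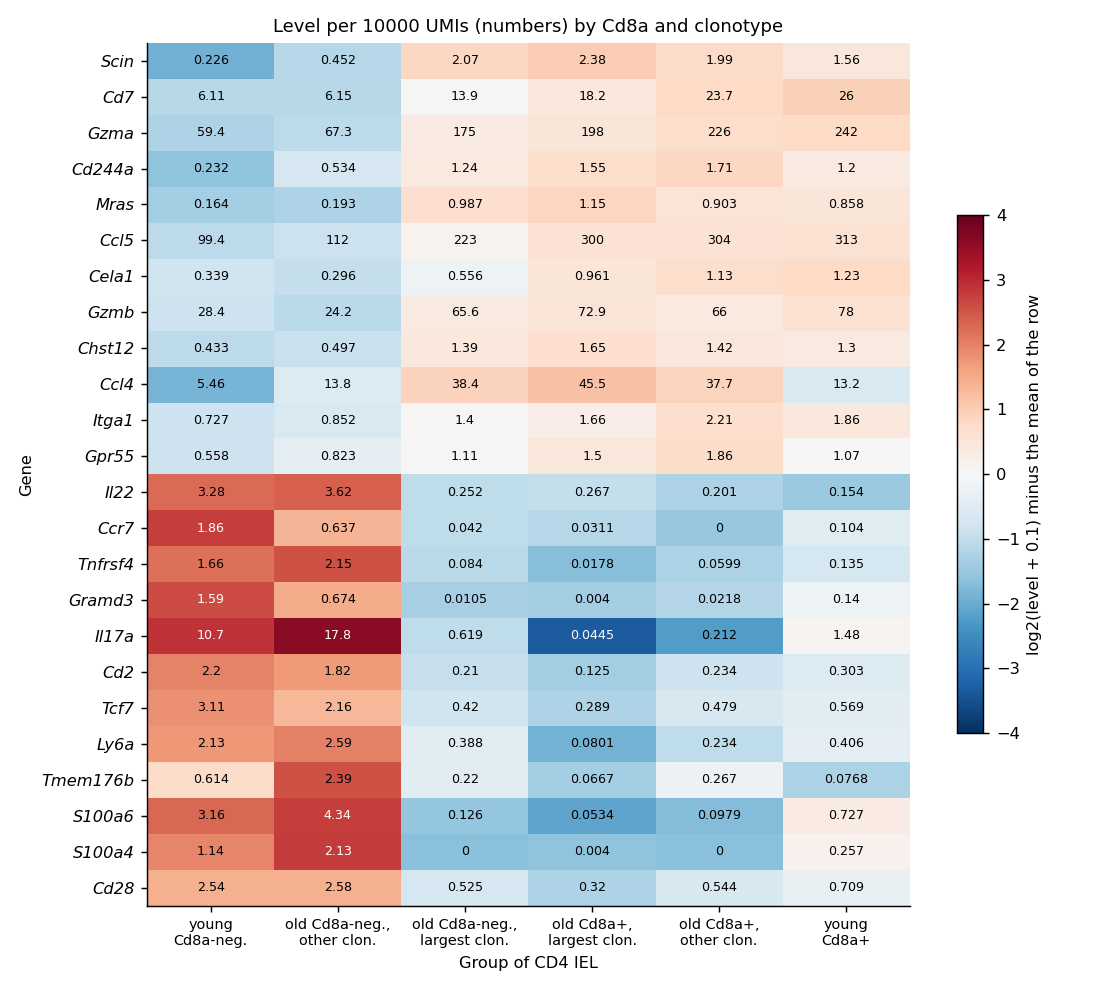
Levels (numbers, UMIs per 10000) of the 12 higher and 12 lower genes with the largest ratio at both ages, in 6 groups of CD4 IEL, with colour for the log2 level minus the mean of its row. Gzma was at 59.4 in young and 67.3 in old Cd8a-negative cells of other clonotypes and between 198 and 242 in the members, and Cd8a-negative cells of the largest old clonotype had 175.

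**Figure D4:**
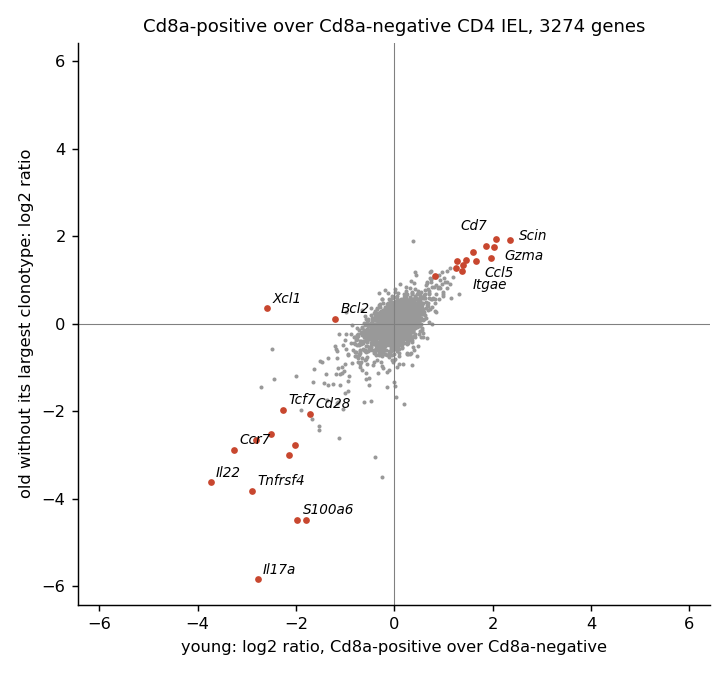
Log2 ratio of members over Cd8a-negative CD4 IEL for 3274 genes, in young (x axis) and in old IEL without its largest clonotype (y axis), with named genes in red. Scin, Cd7 and Gzma lie high on both axes and Il17a, Il22 and Tnfrsf4 low on both, while Xcl1 lies low in young at -2.59 and at 0.36 in old.

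Within the largest old clonotype the members and the Cd8a-negative cells were close. Its 409 members and 186 Cd8a-negative cells differed past 2-fold in 0 genes upward (0%) and in 2 genes downward (0.0611%), a comparison chosen after seeing the data. These 2 were Il17a, at 0.0445 and 0.619, and Ly6a, at 0.0801 and 0.388. Gzma was at 198 in its members and 175 in its Cd8a-negative cells, Gzmb at 72.9 and 65.6, and Scin at 2.38 and 2.07. The Cd8a-negative cells of this clonotype thus lay near its members for these genes, and held 43.8% of all old Cd8a-negative cells.

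The same split was then made in all Cd8a-negative cells, again after seeing the data, by whether their clonotype held a member. In young IEL 129 Cd8a-negative cells shared a clonotype with a member and 544 did not. Gzma was at 152 in the former and 36.0 in the latter, against 242 in members. In old IEL outside the largest clonotype it was at 105 in 119 cells that shared a clonotype and at 37.3 in the 120 that did not, against 226 in members. Ccl5 followed the same order, with 263 and 58.3 in young cells, and Cd7 with 16.0 and 3.63. Ccr7 was at 0.08 in young cells that shared a clonotype and at 2.31 in those that did not, and Klf2, a factor of recirculating T cells, at 0.29 and 4.45. Young cells of clonotypes with at least 2 cells but no member had Gzma at 66.9, below the 152 of cells that shared a clonotype with a member. A floor of 2 cells does not match clonotypes by size, and the part of size was not tested. Il17a did not follow this order in young cells, with 11.3 and 10.6. In old cells it was at 2.55 and 27.6, where, unlike for Gzma, the cells that shared a clonotype included those of the largest clonotype.

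Old members were compared with young members over the same 3274 genes. At least 2-fold higher in old were 32 genes (0.977%) and lower 34 (1.04%). Without the largest clonotype these were 34 (1.04%) and 42 (1.28%), of which 26 and 28 were also past 2-fold with it. Gzma at 242 and 211, Gzmb at 78.0 and 69.8 and the chemokine gene Ccl5 at 313 and 302 were within 2-fold between ages.

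Of the chemokine genes, 3 of the 4 tested were past 2-fold higher in old members, against 0.977% of all genes tested. Ccl4, which encodes a chemokine made by activated T cells, was at 13.2 (12.8 to 13.7) in young and 42.0 (41.4 to 42.6) in old members, and at 37.7 without the largest clonotype. Ccl3 was at 0.564 and 2.19, and Xcl1, whose product attracts dendritic cells, was at 0.506 and 2.22. In Cd8a-negative cells Ccl4 was at 5.46 in young and 24.0 in old, so its difference between ages was not limited to the members. Xcl1 was at 3.55 in young and 2.43 in old Cd8a-negative cells, the opposite order. Of the 1728 young UMIs behind this value 1032 lay in 21 cells of clonotypes with a member, and the 544 cells of other clonotypes were at 1.79. This difference between members and Cd8a-negative cells was not tested.

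Single genes of other lists were higher in old members. Il7r, the 1 of 11 cytokine receptor genes past 2-fold, encodes the α chain of the receptor for the survival cytokine interleukin 7. It was at 0.375 (0.298 to 0.465) in young and 1.87 (1.74 to 2.01) in old members, a log2 ratio of 2.05, and at 2.45 without the largest clonotype. In Cd8a-negative cells Il7r was at 2.55 and 3.01. Bcl2, which blocks apoptosis, was at 0.330 and 1.23, with 1.74 without the largest clonotype. Fasl, the death ligand of cytotoxic T cells, was the 1 of 11 granule and killing genes past 2-fold, at 1.38 and 3.48. It lay within 2-fold in 1 of 6 alternatives, the mean over TRB sequences, at a log2 ratio of 0.95. Themis, a protein of TCR signaling, was at 1.67 and 3.51. Themis was the only one of the 20 TCR signaling genes tested past 2-fold, and lay within 2-fold in 3 of 6 alternatives. Ifng was at 2.62 and 4.80, within 2-fold.

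Immediate early genes respond to stimulation and also to tissue dissociation. Between ages their log2 ratio was above 0 for all 17 tested (15 without the largest clonotype), with a median of 0.51 against 0.00 over all genes. Jun, Nr4a3 and Btg2 were past 2-fold higher in old members, against 0.977% of all genes tested. Nr4a3 was within 2-fold in 4 and Btg2 in 5 of 6 alternatives, and Jun in none of the 6. Jun, a subunit of the factor AP-1, was at 5.39 in young and 15.2 in old members. The list of 23 genes summed to 83.6 in young and 132 in old members, with Junb the most abundant gene, and to 114 and 133 in Cd8a-negative cells. Its part in the other differences between ages was not tested.

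Cell cycle genes leaned lower in old members. Of 14 tested, none had a log2 ratio above 0, and the list median was -0.93. Past 2-fold lower were 6, and 8 without the largest clonotype, against 1.04% and 1.28% of all genes tested. Mcm3 and Mcm5, of the helicase that opens DNA for replication, were among the 6 and lay within 2-fold in 3 and 4 of 6 alternatives. Among the 8, Mcm5 and Tyms each lay within 2-fold in 4 of 6 alternatives, and Top2a and Birc5 each in 1. Stmn1, which destabilises microtubules, was at 2.43 in young and 0.688 in old members, and Pclaf, a partner of the replication clamp, at 1.85 and 0.377. The whole list summed to 44.3 and 25.4 in members and to 41.3 and 26.0 in Cd8a-negative cells, so the order of the ages was the same in both. Glycolysis genes had a median of -0.47 with 1 of 10 past 2-fold (Tpi1, which was within 2-fold in 6 of 6 alternatives), and oxidative phosphorylation genes a median of -0.32 with 0 of 16. No gene past 2-fold was found among 8 inhibitory receptors, 21 lineage factors or 7 senescence genes, except Maf among lineage factors without the largest clonotype, which was lower. Cdkn1a, which encodes the cell cycle inhibitor p21, was at 0.266 in young and 0.213 in old members.

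Further genes lower in old members belonged to no list in common. Lgals1, the gene of galectin 1, was at 7.91 (7.54 to 8.29) in young and 1.58 (1.46 to 1.71) in old members. Capg, which caps actin filaments, was at 1.72 and 0.389, and S100a6, a calcium-binding protein, at 0.727 and 0.0734. Of the 161 S100a6 UMIs of young members, 116 lay in the 41 cells with 1 Cd8a UMI, and after thinning the log2 ratio of the ages was -0.96 in place of -2.25. Ifi27l2a was at 4.19 and 1.05, and with Ly6a made 2 of 11 interferon-stimulated genes past 2-fold lower, against 1.04% of all genes tested. For Ly6a 67 of 90 young UMIs lay in the 41 cells with 1 Cd8a UMI, its log2 ratio was -0.08 with at least 2 Cd8a UMIs, and without the largest clonotype Ifi27l2a alone was past 2-fold. Nfkbia, the inhibitor of NF-κB, was at 7.04 and 2.49 and was the only one of 17 NF-κB pathway genes past 2-fold. It lay within 2-fold in 1 of 6 alternatives, and in 3 of 6 without the largest clonotype. Il17a was at 1.48 and 0.120, a log2 ratio of -2.84. With only members of at least 2 Cd8a UMIs that ratio was 0.37, so its direction depended on members with 1 Cd8a UMI.

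Since 1 clonotype can carry a pooled level, genes were also followed in the 5 largest clonotypes of each age. Of all 3274 genes, 48 (1.47%) had higher and 38 (1.16%) lower levels in each old than in each young clonotype. Of the 12 genes named as higher between ages this held for 4 (Apol7b, Camk2n1, Rhob and Tsc22d3), and of the 12 named as lower for 0. These 24 genes were named from the same contrast, so nothing is read from those counts. The values of some of them, with others picked after their values were seen, follow. Camk2n1, which encodes an inhibitor of the kinase CaMKII, was at 0.0959 to 0.426 in the young and at 0.618 to 1.26 in the old clonotypes, so the levels did not overlap, although their counting intervals did. Ccl4 was at 7.10 to 27.2 and at 21.2 to 52.8, where 1 old clonotype lay among the young ones. Fasl was at 0.852 to 2.69 and at 2.63 to 4.48, overlapping by 1 clonotype. Il7r overlapped, at 0 to 1.92 in young and 0.565 to 4.32 in old clonotypes, and so did Jun at 3.02 to 6.60 and 5.01 to 19.0 and Lgals1 at 2.34 to 9.69 and 0.219 to 5.01. Gzma was at 223 to 303 in young and 120 to 293 in old clonotypes, and the largest old clonotype, at 198, was within the range of the others. Clonotypes of 1 pool are not replicates of an age.

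**Figure D5:**
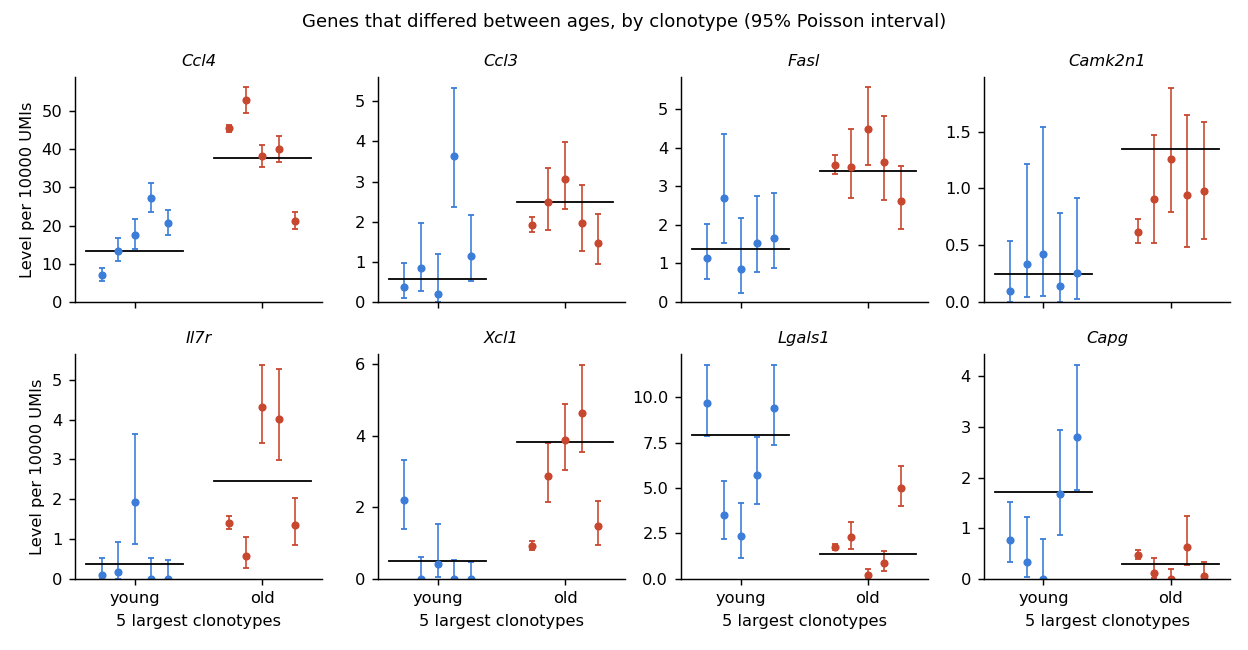
Levels (UMIs per 10000) of 8 genes in the 5 largest clonotypes of young and old members, with exact Poisson 95% intervals, and a black line for the pooled level of young members and of old members without the largest clonotype. Camk2n1 lies between 0.0959 and 0.426 in young and between 0.618 and 1.26 in old clonotypes.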

How the data were processed

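Single-cell 5′ gene expression and TCR libraries of 4 pools (young and old IEL and SP) were analysed. The deposited matrices hold raw counts (UMIs per gene and cell), made by the authors with Cell Ranger 7.0.1 on mm10 per the submitters' processing notes, and the deposited contig tables hold the TCRs. A count is limited by depth, so shares were also computed after thinning each cell to 2000 or 1000 UMIs. No cell barcode of the 21365 occurred in more than 1 pool. Doublets were kept, and an alternative left out cells with at least 2 TRB or 3 TRA contigs or over 3 times their pool's median UMIs. A further 3 samples carry no group in the labels and were not used.

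Counts were summed over the cells of a group, scaled to 10000 UMIs and compared as log2 ratios after adding 0.1. Genes needed a mean level of 0.5 over young and old members and Cd8a-negative cells. TCR segment genes and the 5 genes of the rule were left out, and 3274 were tested. A ratio of at least 2 was counted as past 2-fold, with no p-value. Named genes were the members of the gene lists, the 12 genes per direction with the largest ratio between ages with and without the largest clonotype, the 12 per direction with the largest smaller ratio over both ages against Cd8a-negative cells, and the 5 largest clonotypes per age. The members and lists were chosen with earlier results of these data known. The comparison within the largest clonotype, the overlap of levels between clonotypes, the split of Cd8a-negative cells by clonotype and the grouping by TRB were added after seeing the data. CDR3 bases were matched to germline segments of GRCm38 (GENCODE M21). On simulated data for old against young members (3175 genes tested), all 44, 45 and 45 genes changed 3-, 4- and 8-fold were past 2-fold. Of 47 changed 1.5-fold and of 2994 unchanged, 0 were. The simulated counts varied by counting error only, with no spread between cells, clonotypes or mice. They therefore check the computation and give no rate of false calls for the real pools. Python 3.11.15, numpy 2.4.6, pandas 2.3.3, scipy 1.17.1 and matplotlib 3.10.9 were used.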

Additional observations from a re-analysis of the deposited data

Results flagged for a closer look

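For 5 genes the sign of a ratio differed between groups, and none of these differences was tested. For S100a4 and Anxa2 the ratio in the second group was near 0 and its intervals overlapped, so no direction was shown there. Xcl1 was higher in old than in young members (log2 ratio 1.94) and lower in old than in young Cd8a-negative CD4 IEL (-0.53), where 1032 of the 1728 young UMIs lay in 21 cells. S100a4, a calcium-binding protein gene, was lower in old members (-1.80) and stood at 0.12 in Cd8a-negative cells. Of the 57 S100a4 UMIs of young members 55 lay in 5 cells with 1 Cd8a UMI, and with at least 2 Cd8a UMIs the ratio was -0.11. Areg, which encodes the growth factor amphiregulin, was at -1.38 in members and 0.33 in Cd8a-negative cells. The largest young clonotype held 60 Areg UMIs in its 12 members, while ranks 2, 3 and 4 held 0 and rank 5 held 3. Members against Cd8a-negative cells gave Lgals1 a log2 ratio of -1.14 in old and 0.19 in young IEL. Anxa2, which encodes a membrane-binding annexin, gave -1.07 in old and 0.0081 in young IEL. In old IEL Anxa2 lay within 2-fold in 2 of 5 alternatives, at -0.61 at the least, and Lgals1 in 1. Areg lay within 2-fold between ages of members in 1 of 6 alternatives.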

How the results depend on the processing

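The share of CD4 IEL with Cd8a moved to 22.1% in young and 55.9% in old IEL after thinning to 2000 UMIs, to 15.9% and 45.5% at 1000 UMIs and to 24.2% and 61.1% with at least 2 Cd8a UMIs. It was 59.1% in old IEL without the largest clonotype. The old share stayed above the young one under each of these alternatives. With a pseudocount of 0.5 the genes past 2-fold between ages numbered 32 in place of 66, and 37 in place of 76 without the largest clonotype. With a mean level of 0.2 they numbered 110 and 130. For members against Cd8a-negative cells the same 2 alternatives gave 39 and 131 in young (73 in the text), 21 and 66 in old (37 in the text), and 50 and 153 in old without the largest clonotype (87 in the text). Leaving that clonotype out took the old count from 37 to 87. Within it, the 2 genes became 7 after thinning, 4 with at least 2 Cd8a UMIs, 4 without doublets, 4 with the mean over cells and 1 with a pseudocount of 0.5. Between ages, Il17a reversed to 0.37, or 0.97 without the largest clonotype, with at least 2 Cd8a UMIs. S100a4 reversed to 0.14 and 0.31 after thinning. The cause of these shifts was not tested. Of 816 values of named genes over the alternatives other than the mean level, which cannot move them, 687 kept their direction past 2-fold, 125 lay within 2-fold without reversing (1 of them, Ccr7, at exactly 0) and these 4 reversed. The largest clonotype held between 52.9% and 56.0% of old members. Genes with few UMIs are limited by depth, and those below a mean level of 0.5 were not compared. No paired analysis was possible because each age has 1 pool.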

Other observations

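TCR segments and sharing were described outside the comparisons. Among the 116 young clonotypes with a member, TRBV31 was used by 24 (20.7%, 13.7 to 29.2), against 40 of 458 clonotypes found only among Cd8a-negative cells (8.73%, 6.31 to 11.7). In old IEL it was used by 6 of 103 and 9 of 103. Among the 103 old clonotypes with a member, TRBV5 was the most frequent with 22 (21.4%, 13.9 to 30.5) and TRBV26 followed with 15, against 11 of 103 for TRBV5 among clonotypes of Cd8a-negative cells only (10.7%, 5.46 to 18.3). In young IEL TRBV5 had the opposite order, with 7 of 116 (6.03%) and 51 of 458 (11.1%). A TRA was found for 103 of the 116 young and 64 of the 103 old clonotypes with a member. Cells without one form clonotypes of their own, so 1 TRB can count more than once in these shares and their intervals. TRAV11 joined to TRAJ18, the receptor chain of invariant NKT cells, was found in 0 of 256 young and 0 of 754 old members. It was found in 11 of 673 young Cd8a-negative cells. Only 237 of the young and 695 of the old members had a TRA contig, and in the others this chain could not be seen. The limits that a count of 0 sets over all members, 1.17% and 0.398%, are therefore too low. The median number of TRB bases found in neither germline segment was 9 in young and 8 in old clonotypes with a member. Between ages, 2 TRB sequences of young members (7 members) were found in old IEL and 1 of old members (12 members) in young IEL, and no TRA and TRB pair was shared. Young members shared 4 pairs with young SP, and old members shared 2 with old SP, where the TRB of the largest clonotype was found in 1 cell.

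Levels of 6 genes, picked after their values were seen, are given for the cells with Cd8a and Fcer1g, with no comparison of gene lists. Gzma was at 437 in young and 445 in old cells with Fcer1g, above the 242 and 211 of members, and Cd7 was at 78.2 and 72.3, above 26.0 and 20.7. Lag3, an inhibitory receptor gene, was at 3.99 and 6.12 in cells with Fcer1g and at 0.971 and 0.646 in members. Ctla4 went the other way, at 2.03 and 0.849 against 5.77 and 6.22, and so did Scin, at 0.138 and 0.169 against 1.56 and 2.21. Tyrobp, an adaptor of NK receptors, was at 15.6 and 8.94 against 0.0722 and 0.0392. The old cells with Fcer1g held 1 clonotype with 73.5% of the 585 cells, and only 9 of the 103 old clonotypes with a member also held a cell with Fcer1g.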
